A study of Mus musculus with 4 samples.

Results

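The sarcomeric myosin light chains and the kinases that phosphorylate them were followed in differentiating C2C12 cells, a mouse myoblast line that fuses into myotubes when serum is lowered. The set holds 9 genes, chosen by name: the light chain genes Myl1, Myl2, Myl3, Myl4, Myl6b and Mylpf, and the kinase genes Mylk2, Mylk3 and Mylk4. All 9 had at least 1 probe set that carries a single gene symbol, 12 probe sets in all, out of 18193 genes and 45101 probe sets on the array. For each gene the probe set whose mean over the 4 arrays was highest served as the main one, and any others are given beside it.

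Growth medium held 10% fetal bovine serum and 25 mM glucose, and differentiation was in 2% horse serum. RNA was taken 48 h later from cells given vehicle (2 arrays, control 1 and control 2), tranylcypromine (TC, 1 array), an amine oxidase inhibitor, or S2101 (1 array), a compound known by its code name. The labels name both compounds as inhibitors of the histone demethylase LSD1 and give no dose, so a difference between them is not one at matched doses. Whether each array had a culture of its own is not said in the labels, so the spread behind the p-values may be a technical one. For a compound tested by itself, that spread comes from the 2 control arrays, since its lone array adds none. In every test it is pooled with the variance of all genes tested, and the p-values hold for these 4 samples alone.

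In striated muscle each myosin heavy chain carries an essential and a regulatory light chain on its lever arm. The essential light chains come from Myl1 (fast muscle), Myl3 (slow muscle and ventricle), Myl4 (embryonic muscle and atrium) and Myl6b (slow and non-muscle myosin), and the regulatory ones from Mylpf (fast muscle) and Myl2 (slow muscle and ventricle). Mylk2, the skeletal muscle kinase of the regulatory light chain, is switched on by calcium-bound calmodulin; Mylk3 acts in heart, and Mylk4 is a further kinase of the family. Embryonic isoforms such as Myl4 are made early in myotube formation and give way to adult ones in maturing muscle.

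The windows before the start sites of Myl4, Myl1 and Mylpf are shown because Myl4 was the member that passed a test and the other two are the fast essential and regulatory chains that did not. They are 250 bases from RefSeq (GRCm38.p6), written from 5′ to 3′ on the gene's strand, with each E-box (CANNTG, the sequence bound by MyoD family factors, the same on both strands) in capitals.
Myl4, chr11:104550413-104550662, plus strand: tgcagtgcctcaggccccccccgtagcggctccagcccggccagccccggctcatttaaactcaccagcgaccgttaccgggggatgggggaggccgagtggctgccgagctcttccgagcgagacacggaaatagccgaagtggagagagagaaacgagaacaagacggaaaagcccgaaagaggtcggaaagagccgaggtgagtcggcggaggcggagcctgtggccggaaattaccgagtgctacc
Myl1, chr1:66945057-66945306, minus strand: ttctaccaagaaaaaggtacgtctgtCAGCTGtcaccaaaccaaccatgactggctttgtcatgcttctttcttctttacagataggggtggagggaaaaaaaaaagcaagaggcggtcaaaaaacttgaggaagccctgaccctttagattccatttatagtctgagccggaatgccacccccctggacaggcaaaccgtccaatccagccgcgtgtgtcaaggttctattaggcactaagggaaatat
Mylpf, chr7:127211358-127211607, plus strand: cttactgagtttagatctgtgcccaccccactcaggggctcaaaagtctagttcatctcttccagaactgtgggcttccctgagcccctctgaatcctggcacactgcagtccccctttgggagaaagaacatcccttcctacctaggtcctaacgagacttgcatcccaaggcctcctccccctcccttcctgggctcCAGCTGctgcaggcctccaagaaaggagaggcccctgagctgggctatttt

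The Myl4 window held no E-box, the Myl1 window held 1, beginning 224 bases before the start, and the Mylpf window held 1, beginning 51 bases before it. Among all 32817 windows of the same length, 66.2% hold at least 1 E-box, with a median of 1. All 3 listed starts lie inside the annotated gene, 4646, 2876 and 2760 bases from its outer end for Myl4, Myl1 and Mylpf, and which start these cells used was not measured. Of the 9 genes, 8 had an entry, 10 windows in all; Mylk2 had none. Of these windows, 8 held an E-box, 1 (Mylk4) a MEF2 box, found in 2.92% of all windows, and 1 (Myl3) a CArG box, found in 1.47%; both motifs were searched on both strands. These matches describe letters in a window, not occupied sites.

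Signals are MAS5 intensities on a linear scale, and differences are between log2(signal + 50) values. A gene was tested if its mean signal over the 4 arrays reached that of the median gene, 178.8. This held for 5 members, Myl1, Myl2, Myl4, Mylpf and Mylk4, while Myl3, Myl6b, Mylk2 and Mylk3 lay below. Above the filter the control arrays differed by a median of 0.0925 on this log2 scale, and below it by 0.215; the median plain ratio of their signals was 1.07 and 1.61. Levels of different probe sets are not compared, since each probe set has its own brightness.

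**Figure D1:**
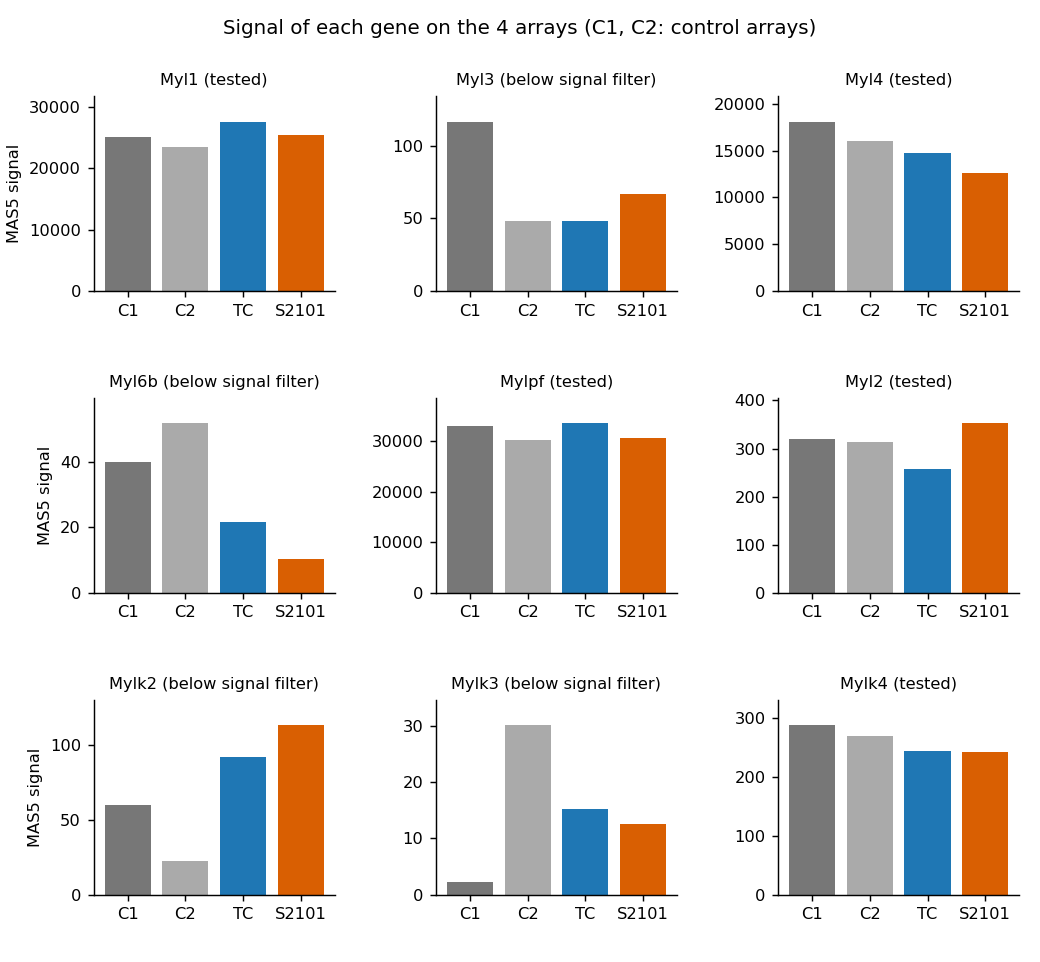
MAS5 signal (linear scale from 0) of the main probe set of each gene on the 4 arrays, 1 bar per array, with C1 and C2 the control arrays. Myl4 stepped down from 18102 and 16081 on the controls to 12602 with S2101, while the 2 control bars of Mylk2, Myl3 and Mylk3 stand far apart.

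Among the essential light chains, Myl4 had signals of 18102 and 16081 in the controls, 14794 under TC and 12602 under S2101. Both inhibitor arrays lay below both controls, the S2101 array farther than the TC array. With S2101, Myl4 fell by 26.1%, a log2 difference of -0.44 (SE 0.08; 95% interval -0.62 to -0.25). This was the only call among the members in the 4 comparisons made (adjusted p = 0.0142, limma with Benjamini-Hochberg over 9097 genes). In that comparison 1 of 5 tested members passed, against 6.71% of all genes tested, or 610 of 9097. In bulk RNA, fewer cells expressing a gene and less of its RNA per cell cannot be told apart.

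With TC, Myl4 stood at -0.21 ± 0.08 (SE; 95% interval -0.39 to -0.02) and did not pass (adjusted p = 0.168, limma). With TC and S2101 as 1 group of LSD1 inhibition it stood at -0.32 ± 0.09, just outside the threshold (adjusted p = 0.0533, limma). The direct difference, TC minus S2101, was 0.23 ± 0.09 (95% interval 0.02 to 0.44; adjusted p = 0.540, limma), so a different response of Myl4 to the compounds was not shown. The TC and S2101 comparisons share the same control arrays and are not independent of each other.

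The Myl4 call depended on settings. With S2101 it ended without the filter on dim genes (adjusted p = 0.231, limma), with a variance that does not depend on intensity (0.170) and with the probe sets of the gene averaged (log2 difference -0.16; 0.615). For both inhibitors together a call was gained after quantile normalization (-0.30; adjusted p = 0.0267, limma) or without control 2 (-0.41; 0.0201), and none was made without control 1 (-0.24; 0.255) or with averaged probe sets (-0.14; 0.627). Leaving out the TC array leaves the S2101 result above, and leaving out S2101 leaves TC alone at -0.21 (adjusted p = 0.163, limma). The averaged value includes a dim second Myl4 probe set, with signals of 143 and 68.6 in the controls, 97.1 under TC and 115 under S2101, in which the inhibitor arrays lay between the controls.

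Myl1, the fast essential light chain, gave 25145 and 23455 in the controls, 27615 under TC and 25473 under S2101. Both inhibitor arrays were above both controls, the S2101 array by little. The log2 difference was 0.13 ± 0.07 for the inhibitors together (95% interval -0.02 to 0.28; adjusted p = 0.311, limma), 0.19 ± 0.07 for TC (0.02 to 0.35; 0.156) and 0.07 ± 0.07 for S2101 (-0.09 to 0.23; 0.655), and none passed. After quantile normalization the inhibitors together reached 0.17 (adjusted p = 0.0491, limma), but without control 2 the value was 0.08 (0.800) and without the TC array 0.07 (0.655). Its probe set is of the kind marked as reading several transcripts of 1 gene, so the long and short Myl1 isoforms, which start at separate promoters, are not told apart.

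Myl1 and Myl4 products take the same place on the heavy chain, and their signal ratio within each array was computed, a choice made after their values were seen. Relative to the control mean, the log2 ratio of Myl1 over Myl4 stood at -0.04 in control 1, 0.04 in control 2, 0.39 under TC and 0.51 under S2101. Both inhibitor arrays exceeded the controls, whose gap was 0.07, and their mean of 0.45 is a 1.36-fold higher ratio. Both arrays already lay above both controls for Myl1 and below both for Myl4. This order of the ratio was therefore fixed in advance and adds no support. The regulatory chain gene Mylpf over Myl4 was higher too, at 0.29 with TC and 0.39 with S2101 (control gap 0.04), while Mylpf over Myl1 was at -0.10 and -0.11 (control gap 0.03). The embryonic heavy chain gene Myh3 over Myl4 gave 0.10 with TC, between the controls at -0.115 and 0.115, and 0.23 with S2101, above them. A ratio shows unequal change and not which gene moved, and these ratios were not tested.

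**Figure D2:**
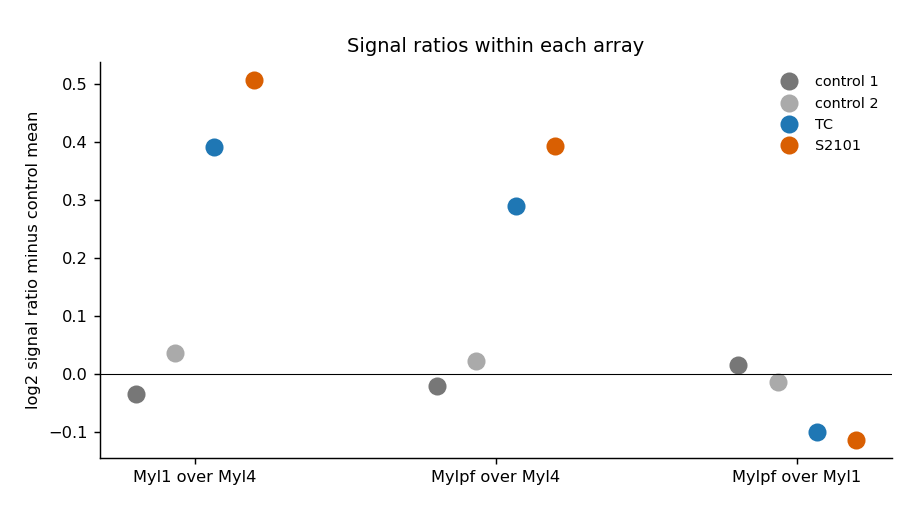
Log2 ratio of signals within each array, minus the mean of the control arrays, for Myl1 over Myl4, Mylpf over Myl4 and Mylpf over Myl1; each point is 1 array. For the first pair TC (0.39) and S2101 (0.51) stand far above the controls, and for the last pair (-0.10 and -0.11) they lie just below them.

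Of the other essential light chains, Myl6b gave 39.8 and 51.7 in the controls, 21.7 under TC and 10.3 under S2101. Both inhibitor arrays lay below both controls, but all 4 signals are under or about the offset of 50. The log2 difference of -0.54 for the inhibitors together became -1.13 when the offset was set to 2% of the trimmed array mean (in place of 10%) and -0.15 at 50%, so its size is not settled by these data. In a fit of all 18193 genes with no filter, where 1.46% were called, it did not pass (-0.54 ± 0.19; adjusted p = 0.264, limma).

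Myl3, the slow and ventricular form, gave 117 and 48.3 in the controls, 48.0 under TC and 67.1 under S2101. The inhibitor arrays lay within or at the edge of the range of the controls, and the log2 difference was -0.26 against a control gap of 0.76. It turned to 0.12 without control 1 and was -0.64 without control 2. In the fit without the filter it did not pass (adjusted p = 0.781, limma). Its other 2 probe sets were dimmer, with signals from 2.0 to 15.2, and are of kinds that can bind related transcripts.

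Among the regulatory light chains, Mylpf gave 33003 and 30204 in the controls, 33465 under TC and 30598 under S2101. The TC array was level with the brighter control and the S2101 array with the dimmer, so the groups overlap. The log2 difference was 0.02 ± 0.07 for the inhibitors together (95% interval -0.14 to 0.18; adjusted p = 0.908, limma). The interval for TC was -0.09 to 0.25 and for S2101 -0.21 to 0.12, which covers changes of either sign.

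Myl2 gave 320 and 314 in the controls, 257 under TC and 352 under S2101. The controls nearly coincided, the TC array lay below them and the S2101 array above. The log2 difference was -0.26 ± 0.16 for TC (adjusted p = 0.396, limma) and 0.13 ± 0.16 for S2101 (0.716), and -0.06 ± 0.16 for both together (0.867). TC minus S2101 was -0.39 ± 0.19 (95% interval -0.81 to 0.04; adjusted p = 0.607, limma), so opposite responses were not shown.

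Mylk4 was the only kinase gene above the signal filter. It gave 287 and 268 in the controls, 244 under TC and 242 under S2101, and both inhibitor arrays were below both controls, at nearly the same signal. The log2 difference was -0.16 ± 0.14 for the inhibitors together (95% interval -0.48 to 0.15; adjusted p = 0.562, limma). The compounds gave -0.16 (TC) and -0.17 (S2101), and their difference of 0.01 had an interval of -0.45 to 0.46, so an unlike response is not bounded closely.

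Mylk2, the skeletal muscle kinase, gave 60.1 and 22.8 in the controls, 92.2 under TC and 113 under S2101. Both inhibitor arrays were above both controls, which themselves differed 2.63-fold. The log2 difference was 0.77 for the inhibitors together, the largest in size among the 9 main probe sets at this offset, with 0.67 for TC and 0.87 for S2101. It was 1.23 when the offset was 2% of the trimmed array mean, 0.28 at 50%, 1.07 without control 1 and 0.47 without control 2. In the fit without the filter the estimate was 0.77 ± 0.26 (95% interval 0.13 to 1.41) and did not pass (adjusted p = 0.263, limma).

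Mylk3, the cardiac kinase, gave 2.3 and 30.1 in the controls, 15.3 under TC and 12.5 under S2101. The controls differed 13-fold and enclosed both inhibitor arrays. The log2 difference was -0.02 against a control gap of 0.61, with -0.33 without control 1 and 0.29 without control 2. No change was detectable at this signal.

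**Figure D3:**
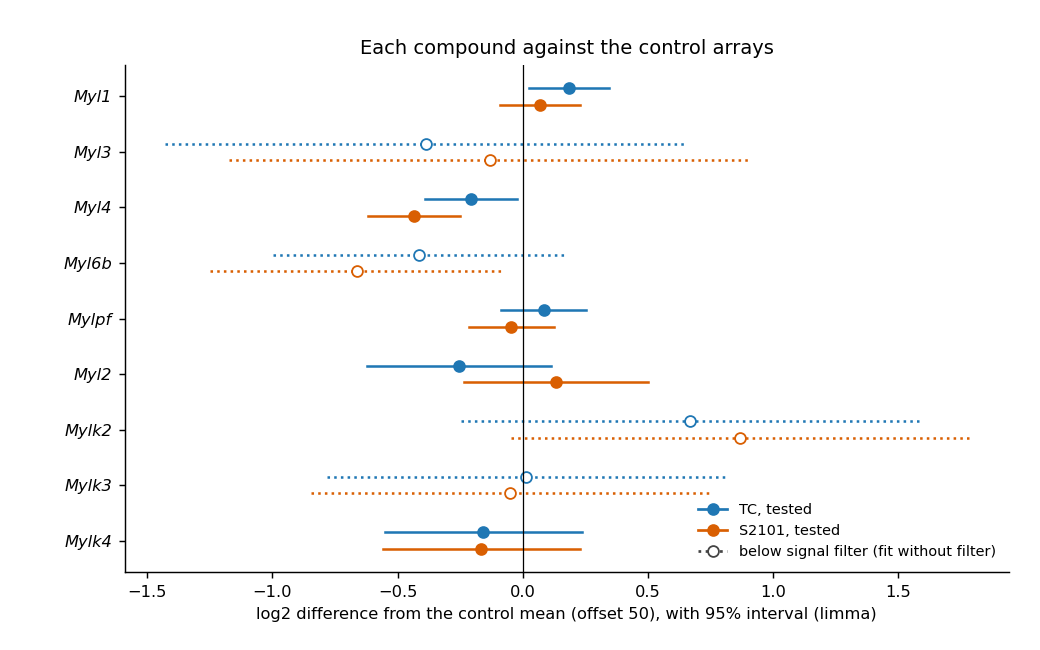
Log2 difference of each compound from the control mean, with its 95% interval from limma (not adjusted for the number of genes); filled points are tested genes, and open points with dotted lines are genes below the signal filter, from a fit without it. Myl4 with S2101 lies at -0.44, and the dim genes Mylk2, Myl3, Mylk3 and Myl6b have the widest intervals.

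Over the whole set, 0 of 5 tested members passed for the inhibitors together (8.01% of all genes tested did, 729 of 9097), 0 for TC (8.18% of all genes), 1 for S2101 (Myl4, lower) and 0 for TC against S2101 (0.033% of all genes, 3 of 9097; limma). At an unadjusted p under 0.05 the counts were 1 of 5 for the inhibitors together, where 22.3% of all genes reached it, 2 for TC (23.6% of all genes), 1 for S2101 (20.8%) and 1 for the direct difference (8.71%). Myl1 and Myl4 were the 2 with TC, and Myl4 the 1 in each of the other comparisons. The median difference of the tested members was -0.06 for the inhibitors together, against 0.01 over all genes tested, and the median absolute difference was 0.13 against 0.12. In 3 of the 5 tested members the inhibitor arrays both lay outside the range of the controls, on 1 side (Myl1, Myl4 and Mylk4), as in 51.1% of all genes tested. Below the filter this held for 2 of 4, Myl6b and Mylk2, and for 35.3% of such genes.

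**Figure D4:**
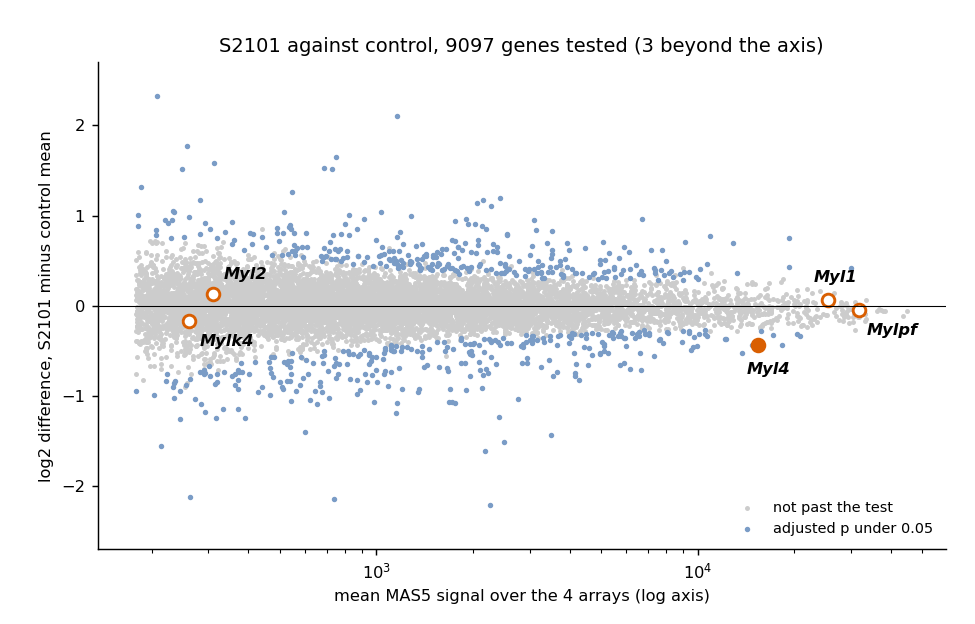
Log2 difference of the S2101 array from the control mean (vertical axis) against mean MAS5 signal over the 4 arrays (log axis) for the 9097 genes tested, 3 of which lie beyond the axis; blue points passed the test and orange circles are the 5 tested members, filled where past the test. Myl4 (-0.44) lies apart below the line, and Myl1 (0.07) and Mylpf (-0.05) lie near 0.

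The partners of these proteins were read from 5 lists of 38 genes, of which 24 were tested. For the inhibitors together 2 rose and 1 fell, 12.5% against 8.01% of all genes, with a median of -0.01 against 0.01. None of 5 tested genes among the other light chains and the smooth muscle kinase passed; their median was -0.05. The largest differences were those of Myl9, the smooth muscle regulatory chain (-0.21 ± 0.07; adjusted p = 0.123, limma), and Myl6 (-0.10 ± 0.12; 0.694). Other Myl6 probe sets also name other genes and were not used.

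Of 9 tested genes of the light chain phosphatase and its regulators, 1 rose and 8 did not pass (median -0.01). Ppp1r14c, which encodes an inhibitor of protein phosphatase 1, gave 915 and 906 in the controls, 1495 under TC and 1307 under S2101. Both inhibitor arrays were well above the controls, which nearly coincided, and the gene rose by 0.59 ± 0.10 for the inhibitors together (adjusted p = 0.00433, limma), by 0.69 ± 0.10 with TC (0.00451) and by 0.50 ± 0.10 with S2101 (0.0203). None of the 3 calmodulin genes had a probe set with a single symbol, and they were not analysed here.

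Of 3 tested heavy chain genes, 1 fell and 2 did not pass (median -0.16): Myh7, the slow heavy chain, read 561 and 628 in the controls, 281 under TC and 295 under S2101. It was about as low under either compound and fell by 0.93 (SE 0.12; adjusted p = 0.00165, limma), while the slow light chain gene Myl2, given above, did not pass. Of 7 tested genes of thick filament assembly and the M-band, 1 rose and 6 did not pass (median 0.09); the M-band gene Myom2 read 9468 and 9017 in the controls, 12472 under TC and 11004 under S2101, both above the controls, and rose by 0.34 ± 0.08 (adjusted p = 0.0212, limma). With TC alone Myom2 passed, at 0.431 ± 0.07, and with S2101 alone it did not, at 0.251 ± 0.07. Its probe set is of a kind that can bind related transcripts.

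All 8 markers of differentiated skeletal muscle were tested and none passed for the inhibitors together or for either compound; their summed signal was 86279 and 86295 in the controls, 91555 under TC and 81917 under S2101, the order of TC and S2101 also seen in Myl1, Myl4 and Mylpf. In those genes TC minus S2101 was 0.12, 0.23 and 0.13. Control 1 likewise lay above control 2 in them, by 0.10, 0.17 and 0.13. Of 7 markers of cycling or undifferentiated myoblasts 6 were tested and 2 fell, Mki67 (-0.94; adjusted p = 2.32e-04, limma) and Top2a (-0.94; 4.97e-04), and the sum was 9548 and 10093 in the controls, 8036 under TC and 8675 under S2101. The other tested markers of this list did not pass: Id1 (0.206), Myf5 (0.085), Id3 (0.062) and Pax7 (-0.051). The median of the list was 0.0055. Of 6 smooth muscle or myofibroblast markers 2 of 4 tested fell, Tagln (-1.60; adjusted p = 6.78e-06, limma) and Actg2 (-0.92; 3.55e-04), with sums of 37839 and 36271 against 30995 and 29905. Most of these sums came from Acta2, which did not pass (-0.16; adjusted p = 0.152, limma). Of 7 heart muscle markers 3 were tested and none passed for the inhibitors together, but Actc1, the cardiac actin gene also made in embryonic skeletal muscle, fell with S2101 (-0.28; adjusted p = 0.0362, limma), the comparison in which Myl4 was called. Actc1 read 16838 and 17040 in the controls, 14959 under TC and 13948 under S2101, and was at -0.18 with TC (adjusted p = 0.141, limma). The heart markers summed to 36924 and 36973, 36599 with TC and 33171 with S2101. Nearly all of this came from Actc1 and from Tnnt2, which read 19681 and 19566 in the controls, 21380 under TC and 18866 under S2101. Myh6, Nppa, Tnni3 and Myl7 lay below the signal filter. Leukocyte markers (3 genes) summed to between 389 and 498, mostly from Cd14, and endothelial markers (3 genes) to between 35.2 and 121. No marker was listed at 0, and the part of these cell states in the light chain values was not tested.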

How the data were processed

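Gene expression was measured on 4 Affymetrix arrays, 1 per sample: 2 control, 1 TC and 1 S2101. The deposited values are MAS5 signal intensities (linear), made by the authors with MAS5 in Affymetrix Expression Console as far as the submitters' processing notes name tools; for versions and background settings, the sources used here give none. The deposited intensities have a trimmed mean of 500.0 on every array (2% off each end). The platform annotation gave 34945 probe sets 1 symbol, 932 several, and 34741 matched the mouse gene table by identifier.

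Each gene was read from its brightest single-symbol probe set. Tests ran on log2(signal + 50) of 9097 genes, those with a mean no lower than the median gene; 50 is 10% of the trimmed mean. They used R 4.3.3 and limma 3.58.1 with lmFit, trended eBayes and a Benjamini-Hochberg threshold of 0.05. Only the fit for the inhibitors together was checked on simulated data, with planted differences larger than those of the tested members. The fit with 3 groups, which gave the Myl4 call, was not checked in this way. Treating both compounds as 1 group was decided here (2 residual degrees of freedom). The fit with 3 groups has 1, so a lone array is assumed to vary like the controls. The number of arrays limits precision. Members, gene lists and tests were chosen with earlier results of these data known. All members were named; of other lists, genes past the test, or else the 2 with the largest differences. Alternatives were other offsets, filters, scaling, variance model, averaged probe sets and each array left out.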

Additional observations from a re-analysis of the deposited data

How the results depend on the processing

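The count of members past the test (limma) for the inhibitors together, 0, became 2 after quantile normalization (Myl1 and Myl4), where 842 of all 9097 genes were called against 729, and ranged from 0 to 1 when each array was left out. For S2101 the count of 1 became 0 with no filter on signal, 0 with an untrended variance and 0 with averaged probe sets; it stayed 1 with either other offset, a stricter filter or quantile normalization, where the adjusted p of Myl4 ranged from 0.00427 to 0.0145. Counts for TC and for TC against S2101 stayed 0 under all 7 alternatives that leave no array out. Leaving out a control leaves no residual degrees of freedom for a single compound, so those are values with no test. Signs turned for Mylpf, Myl2, Myl3 and Mylk3, none of them past the test in any setting: with arrays left out Mylpf ranged from -0.045 to 0.084 and Myl2 from -0.255 to 0.133 for the inhibitors together, and Mylpf with S2101 was 0.042 after quantile normalization and 0.019 without control 1. Myl3 with S2101 (-0.13) was 0.25 without control 1. Mylk3 for the inhibitors together was 0.10 at the offset of 2% and 0.01 without S2101; with S2101 it was 0.02 at that offset and 0.26 without control 2, and with TC (0.01) it was -0.003 at the offset of 50% and -0.30 without control 1. For the inhibitors together Myl3 and Mylk3 also turned with a control left out, as given above. Myl4 was negative for each compound and for both together under all alternatives run, each of which includes its main probe set. Its dim second probe set, taken alone, stood at 0.122 with S2101, -0.041 with TC and 0.041 for both together. Over all genes, calls for the inhibitors together (729) were 266 without the filter, 423 without a trend, 457 with a stricter filter and 478 with averaged probe sets. Without the filter and without a trend they were 12 and 83 for TC (main 744) and 8 and 112 for S2101 (main 610); for TC against S2101 (main 3) they were 0 and 0, with 13 after quantile normalization (4 higher, 9 lower) and 22 with averaged probe sets (7 higher, 15 lower), against 0 higher and 3 lower. No paired analysis was run: each compound has 1 array, and the numbers on the inhibitor labels were read as naming the compounds. A pairing of TC with control 1 and of S2101 with control 2 was not tested. The ratio of Myl1 over Myl4 (0.45) lay between 0.27 (averaged probe sets) and 0.51 (without the TC array), alternatives chosen after seeing the data. Signals near or under the offset of 50 limit Mylk2, Mylk3, Myl3 and Myl6b.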

Other observations

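Some dim partners of the light chains, named after their values were seen, lay below the signal filter and were not tested. The perinatal heavy chain gene Myh8 had signals of 134 and 142 in the controls, 77.8 under TC and 103 under S2101, a log2 difference of -0.43 for the inhibitors together. The fast myosin-binding protein C gene Mybpc2 had 76.1 and 55.4 in the controls, 143 under TC and 81.5 under S2101, a log2 difference of 0.47. In both genes the inhibitor arrays lay beyond both controls, as in 35.3% of genes below the filter. The same held for the dim partners Mybpc1 (-0.236), Ppp1r14a (-0.105) and Myh2 (0.066). For Myl7, Myl10, Myh4, Myh6 and Myh7b, also below the filter, the groups overlapped.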
